A study of Rattus norvegicus with 24 samples.

Results

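The comparison concerned the lumbar (L4-5) dorsal root ganglia (DRG) of 8 OVX-TPTD rats and 8 Sham-vehicle rats, which are 16 of the 24 rats of the series and were taken by their group labels. All rats were female Sprague-Dawley rats of 20 weeks of age, operated on at 12 weeks. OVX-TPTD rats were ovariectomized (OVX) and, from 4 weeks after surgery, were injected subcutaneously with teriparatide (TPTD) at 30 µg/kg body weight 3 times a week for 4 weeks. The OVX-vehicle rats, 8 in number, were ovariectomized and were injected with saline on the same schedule, and their values stand beside those of the compared groups. Sham-vehicle rats had an operation that left the ovaries in place, and were also injected with saline. OVX-TPTD and Sham-vehicle rats therefore differed in both the ovariectomy and the drug, and the comparison of these groups alone cannot tell the parts of the surgery and the drug apart. The study had chosen the rats of each group by body weight and heat withdrawal latency, with the Sham-vehicle rats taken from 10 operated animals. Polyadenylated RNA was sequenced from each rat as 1 library. In these bulk samples, fewer cells of a type and less RNA per cell cannot be told apart. A surgery label of OVX-vehicle replicate 1 conflicts with its title, and this rat was kept in the group of its title.

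Teriparatide is an N-terminal fragment of human parathyroid hormone that builds bone through the receptor PTH1R. This receptor couples to Gs, which raises cyclic AMP through adenylyl cyclases, and to Gq, which acts through phospholipase C and protein kinase C. The DRG hold the cell bodies of primary sensory neurons, wrapped by satellite glial cells, and small nociceptive neurons among them make peptides such as substance P and CGRP that act on spinal neurons and on blood vessels.

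The libraries held 17506142 to 19069898 counts per OVX-TPTD rat, 16466519 to 18770308 per OVX-vehicle rat and 15573454 to 18804244 per Sham-vehicle rat. The sensory neuron markers, summed in FPKM (a fragment count scaled to gene length and library size), ranged over 17899 to 20459 in OVX-TPTD rats and 18319 to 20800 in Sham-vehicle rats. Neuronal transcripts were abundant in every rat, as the tissue label requires, and the groups overlapped. Sham-vehicle replicate 3 stood apart from its group, with a root mean square deviation from the group mean of 0.292 on the log2 scale, against 0.207 to 0.251 in the other 15 rats. OVX-TPTD replicates 6 and 7 had the highest levels of interferon-stimulated genes. The interferon and macrophage results are given below with and without the rat or rats that stand apart in them.

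Of 12645 genes tested with edgeR's quasi-likelihood test, 4 passed a Benjamini-Hochberg adjusted p of 0.05 (0.0316%). Bdnf and Tac1 rose in OVX-TPTD rats relative to Sham-vehicle rats, and Tmprss5 and Adra2c fell. These 4 genes encode a neurotrophin, the precursor of substance P, a membrane protease and an adrenergic receptor. Bdnf was the only one of them that passed in each of the 16 fits that left out 1 rat.

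Bdnf encodes brain-derived neurotrophic factor, which sensory neurons make and release in the spinal cord. It lies on chromosome 3 of rn6 (100768637 to 100819214, plus strand). OVX-TPTD rats had 4.33, 4.02, 4.69, 5.21, 4.97, 5.91, 5.54 and 5.48 FPKM, and Sham-vehicle rats had 3.07, 3.46, 3.27, 3.28, 3.87, 2.55, 3.86 and 3.76 FPKM. Every OVX-TPTD rat lay above the highest Sham-vehicle rat. OVX-vehicle rats ranged from 3.38 to 4.44 FPKM and overlapped both other groups. The means were 5.02 ± 0.642 FPKM in OVX-TPTD, 3.87 ± 0.362 FPKM in OVX-vehicle and 3.39 ± 0.450 FPKM in Sham-vehicle rats (SD, n = 8 each). The log2 difference between OVX-TPTD and Sham-vehicle rats was 0.56 (SE 0.084, edgeR adjusted p = 0.00565), and between OVX-TPTD and OVX-vehicle rats 0.38 (SE 0.0834, adjusted p = 0.995). The unadjusted p of the difference from OVX-vehicle rats was 0.00011.

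Tac1, the precursor gene of substance P and neurokinin A, lies on chromosome 4 (33638853 to 33646821, plus strand). It was at 217, 236, 251, 221, 232, 238, 210 and 229 FPKM in OVX-TPTD rats, and at 191, 179, 176, 178, 183, 165, 203 and 186 FPKM in Sham-vehicle rats. As for Bdnf, the groups did not overlap. OVX-vehicle rats averaged 230 ± 24.9 FPKM, close to the 229 ± 13 FPKM of OVX-TPTD rats and above the 183 ± 11.1 FPKM of Sham-vehicle rats (SD, n = 8 each). The log2 difference from Sham-vehicle was 0.32 in OVX-TPTD rats (SE 0.0536, edgeR adjusted p = 0.0173) and 0.32 in OVX-vehicle rats (SE 0.0536, adjusted p = 0.0269). Between OVX-TPTD and OVX-vehicle rats it was −0.01 (SE 0.0535). Without OVX-TPTD replicate 6 or Sham-vehicle replicate 4 Tac1 lost its call, and its adjusted p was above 0.05, up to 0.0652. The adjusted p was 0.0688 without OVX-TPTD replicate 5 and Sham-vehicle replicate 3 together (log2 difference 0.31), and 0.336 with OVX-vehicle replicate 1 counted as a Sham-vehicle rat (0.25).

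Promoter sequences of the 2 genes that rose are shown because cyclic AMP, a second messenger of PTH1R, acts on genes through the CRE half-site TGACG. In cultured DRG neurons, however, the study found lower cyclic AMP with TPTD, and it proposed signalling through Gi and Gq there. Tac1 also had a log2 difference of 0.32 from Sham-vehicle rats in OVX-vehicle rats, which got no TPTD. RefSeq (GRCr8) lists 6 start sites for Bdnf and 1 each for Tac1, Tmprss5 and Adra2c. The half-site was searched on both strands (as TGACG or CGTCA) in the 250 bases before each start. It occurred before 1 of the 6 Bdnf starts and before the Tac1 start, and these letters are not in the windows of Tmprss5 and Adra2c. Of all 33469 such windows, 18.2% hold it, and 1.59% hold the full site TGACGTCA, which none of the 9 windows of these 4 genes holds. A match is a description of the sequence only. The matches are in capitals in the windows below, which are chr3:116637608-116637857 (plus strand) for Bdnf and chr4:36645333-36645582 (plus strand) for Tac1.
Bdnf: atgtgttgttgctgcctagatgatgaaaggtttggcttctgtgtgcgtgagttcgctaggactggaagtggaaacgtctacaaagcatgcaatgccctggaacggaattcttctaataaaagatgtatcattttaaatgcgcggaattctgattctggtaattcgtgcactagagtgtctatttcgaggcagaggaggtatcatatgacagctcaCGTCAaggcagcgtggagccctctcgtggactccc
Tac1: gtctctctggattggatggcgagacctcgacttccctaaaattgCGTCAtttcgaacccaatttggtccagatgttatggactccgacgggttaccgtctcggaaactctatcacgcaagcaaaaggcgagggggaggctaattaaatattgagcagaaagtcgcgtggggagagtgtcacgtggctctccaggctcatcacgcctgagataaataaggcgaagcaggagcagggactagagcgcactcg

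Tmprss5, which encodes a membrane-bound serine protease also called spinesin, lies on chromosome 8 (53411316 to 53429420, plus strand). Its FPKM values were 44.7, 45.6, 39.9, 46.2, 44.4, 43.1, 42.6 and 45.6 in OVX-TPTD rats, against 47.0, 50.8, 60.8, 61.3, 49.3, 49.6, 57.1 and 50.0 in Sham-vehicle rats. All 8 OVX-TPTD rats lay below the lowest Sham-vehicle rat. OVX-vehicle rats ranged from 40.1 to 47.5 FPKM, like the OVX-TPTD rats. Tmprss5 fell by 0.28 on the log2 scale in OVX-TPTD rats relative to Sham-vehicle rats (SE 0.0508, edgeR adjusted p = 0.0268), with −0.25 in OVX-vehicle rats (SE 0.0508, adjusted p = 0.167). It lost its call in 5 of the 16 fits without 1 rat, which left out OVX-TPTD replicate 3, 5 or 6 or Sham-vehicle replicate 4 or 7 (adjusted p up to 0.0803). The adjusted p was also above 0.05 in the fit of the 2 compared groups alone (0.0563), without OVX-TPTD replicate 5 and Sham-vehicle replicate 3 together (0.105), and with OVX-vehicle replicate 1 counted as a Sham-vehicle rat (0.139).

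Adra2c, the α2C adrenergic receptor, inhibits adenylyl cyclase through Gi and is encoded on chromosome 14 (80730307 to 80732010, minus strand). OVX-TPTD rats had 7.64, 8.22, 8.75, 6.82, 8.21, 7.25, 7.91 and 7.61 FPKM, and Sham-vehicle rats had 9.53, 8.60, 11.2, 10.5, 8.19, 9.95, 9.32 and 10.2 FPKM. The groups overlapped, with 5 OVX-TPTD rats below the lowest Sham-vehicle rat. Adra2c fell by 0.32 on the log2 scale in OVX-TPTD rats relative to Sham-vehicle rats (SE 0.0595, edgeR adjusted p = 0.0366). The OVX-vehicle value was −0.29 (SE 0.0596, adjusted p = 0.167). Its call held in 6 of the 16 fits without 1 rat and was lost, up to an adjusted p of 0.101, without OVX-TPTD replicate 4, 5, 6 or 8 or Sham-vehicle replicate 1, 3, 4, 6, 7 or 8. The adjusted p of Adra2c was also above 0.05 in the fit of the 2 compared groups alone (0.0746), with no filter on low counts (0.0555), in limma (0.0528 and 0.0511), without OVX-TPTD replicate 5 and Sham-vehicle replicate 3 together (0.106), and with OVX-vehicle replicate 1 counted as a Sham-vehicle rat (0.284).

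**Figure D1:**
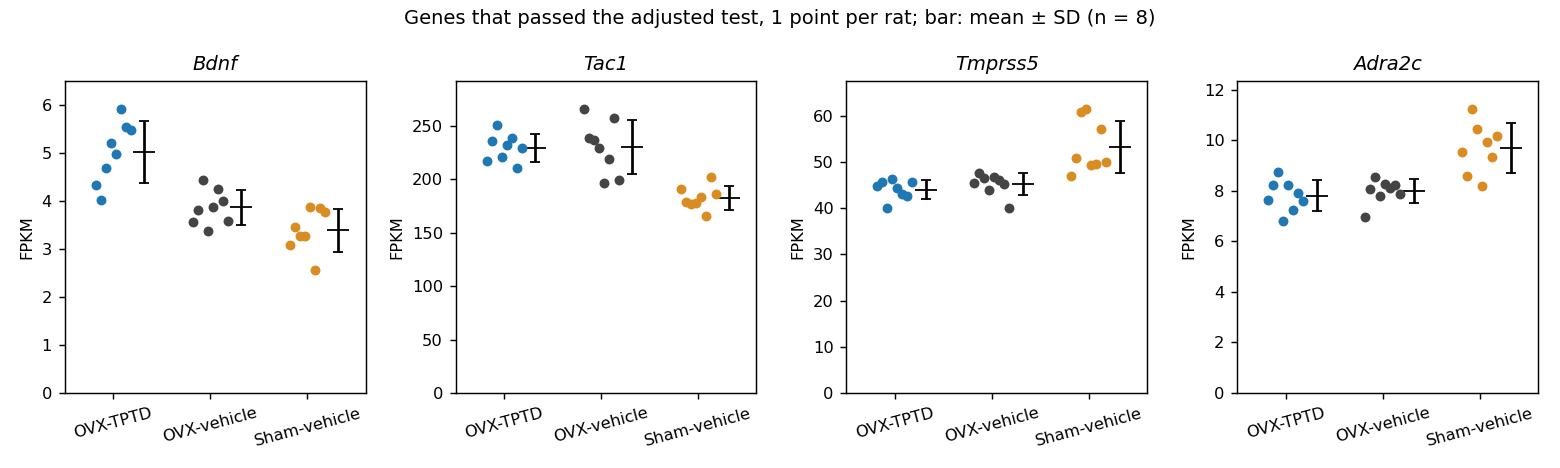
FPKM of Bdnf, Tac1, Tmprss5 and Adra2c, with 1 point per rat and the mean ± SD of 8 rats per group beside the points. OVX-TPTD rats are above all Sham-vehicle rats in Bdnf and Tac1 and below all of them in Tmprss5, whereas OVX-vehicle rats are near OVX-TPTD rats except in Bdnf, where they average 3.87 FPKM.

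The number of genes that passed was small, but the unadjusted p values were low for more genes than in the other comparisons of the same fit. At an unadjusted p under 0.05 there were 1909 genes (15.1%) between OVX-TPTD and Sham-vehicle rats, 895 higher (7.08%) and 1014 lower (8.02%). With library size scaling in place of TMM the split was 1169 higher and 798 lower, and the median over all genes was 0.01 in place of 0.00. Without OVX-TPTD replicate 5 there were 1247 genes, 516 higher and 731 lower of 12662. Without OVX-TPTD replicate 7 there were 2718, 1218 higher and 1500 lower of 12673. Counts over all genes thus moved with the rat left out, as the list counts below did. Between OVX-vehicle and Sham-vehicle rats 610 genes had such a p (4.82%) and 1 passed after adjustment, Tac1 (0.00791%). Between OVX-TPTD and OVX-vehicle rats 462 had such a p (3.65%) and 0 (0%) passed in edgeR, the only tool run on that comparison. These comparisons share rats, and the counts were not tested against each other.

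In the deposited FPKM, 357 of 13024 entries above 0 in all rats (2.74%) met the thresholds of the study, which are a p under 0.05 (here from an exact two-sided permutation test) and a log2 difference of more than 0.25 in either direction. Of these, 214 were higher and 143 lower in OVX-TPTD rats. On the scale of log2(FPKM + 1), 148 entries passed both thresholds. An exact p under 0.05 was reached by 1812 entries, 1070 of them higher, against 842 of 1759 after rescaling with TMM factors. None passed after adjustment (0 entries, smallest adjusted p 0.169), where the smallest p the test can give is 0.000155.

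The groups did not overlap in 10 of the 12645 genes (0.0791%), by log2 CPM (counts scaled to library size). Besides Bdnf, Tac1 and Tmprss5, these included LOC683313, Fuom, Akr7a2, Gpr153, Patz1 and MGC109340. Akr7a2, an aldo-keto reductase, had a narrow spread in OVX-TPTD rats, at 22.2 ± 0.309 FPKM, against 19.8 ± 1.22 FPKM in Sham-vehicle rats (SD, n = 8 each). Its log2 difference was 0.16 (SE 0.0484, adjusted p = 0.24). LOC683313 was low, at 0.0480 to 0.198 FPKM in OVX-TPTD rats and 0.269 to 0.492 FPKM in Sham-vehicle rats, with 1 to 20 counts per rat over the 24 rats. Only 3 of the 10 passed the adjusted test.

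A further 14 genes had an adjusted p between 0.05 and 0.1 in edgeR, which the test did not call. Nppb, the natriuretic peptide gene of itch-transmitting neurons in mice, had the lowest, median and highest value of 1.15, 2.32 and 3.81 FPKM in OVX-TPTD rats and 0.184, 0.495 and 1.23 FPKM in Sham-vehicle rats. Of the OVX-TPTD rats, 7 lay above every Sham-vehicle rat (log2 difference 1.89, SE 0.382, adjusted p = 0.0543). Its counts were only 2 to 50 per rat. Ifitm1, an interferon-induced membrane protein gene, was at 28.2 ± 3.61 FPKM in OVX-TPTD rats and 19.7 ± 4.59 FPKM in Sham-vehicle rats (SD, n = 8 each), and 2 OVX-TPTD rats exceeded the highest Sham-vehicle rat, replicate 3. The value of Ifitm1 was 0.51 (SE 0.101, adjusted p = 0.0543), and without Sham-vehicle replicate 3 it was 0.62 (adjusted p = 2.2e-04, the lowest over all alternatives, of which the highest was 0.258). Trpm8, the cold-sensing channel, was at 17.6 ± 2.2 FPKM in OVX-TPTD rats and 21.8 ± 2.18 FPKM in Sham-vehicle rats (SD, n = 8 each; log2 difference −0.32, SE 0.068, adjusted p = 0.0706).

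The others of the 14 included Osmr, the oncostatin M receptor of nociceptors and glia (0.50, SE 0.111, adjusted p = 0.0848), and Slc25a32, a mitochondrial folate carrier (0.29, SE 0.0646, adjusted p = 0.0884). On the lower side were Acot1, an acyl-CoA thioesterase of a gene cluster whose copies may share reads (−0.46, SE 0.0887, adjusted p = 0.0543), Clmn (−0.40), Cish (−0.49) and Gfod1 (−0.29). Pcnp and Fuom had values of 0.20 and 0.39. Tmprss2, a serine protease gene, had the highest value of the 14, 2.26 (SE 0.509, adjusted p = 0.0997), from 0 to 62 counts per rat.

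**Figure D2:**
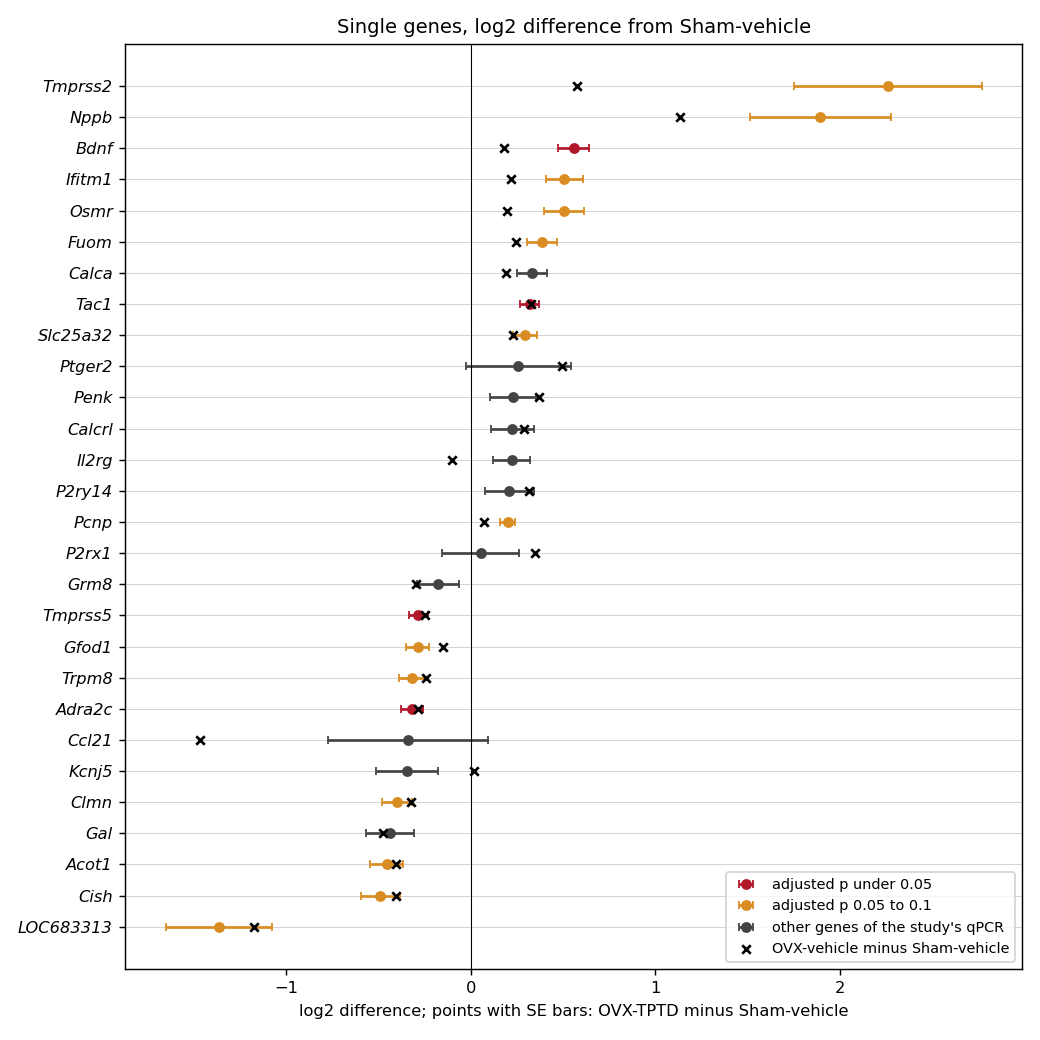
Log2 difference between OVX-TPTD and Sham-vehicle rats (points, with SE bars) for genes with an adjusted p under 0.1 and the other tested genes of the qPCR panel, and between OVX-vehicle and Sham-vehicle rats (crosses). Bdnf at 0.56 lies to the right of its cross at 0.18, whereas the cross and the point of Tac1 both lie at 0.32.

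More neuropeptide genes were higher than lower. Of 15 tested, 4 were higher and 1 was lower at an unadjusted p under 0.05 (26.7% and 6.67%, against 7.08% and 8.02% of all genes). The median log2 difference was 0.22, and 0.12 once the trend in transcript width described below was removed, beside 0.00 over all genes. The 4 were Nppb, Tac1, Calca and Calcb. Calca, which encodes αCGRP, a vasodilator peptide of nociceptors, had a lowest, median and highest level of 260, 289 and 358 FPKM in OVX-TPTD rats and 214, 223 and 309 FPKM in Sham-vehicle rats. The rats overlapped through Sham-vehicle replicate 4, and 3 OVX-TPTD rats lay above it (log2 difference 0.33, SE 0.0829, adjusted p = 0.158). Calcb, the βCGRP gene that may share reads with Calca, was at 176 ± 22.1 FPKM in OVX-TPTD and 139 ± 15.9 FPKM in Sham-vehicle rats (SD, n = 8 each; 0.33, SE 0.0926, adjusted p = 0.221). Ramp1, whose protein joins CALCRL to form the CGRP receptor, had 0.35 (SE 0.138, adjusted p = 0.277), and Calcrl itself 0.22 (SE 0.118). Gal, the galanin precursor, was the 1 lower gene, at 7.98 ± 1.66 FPKM in OVX-TPTD and 10.7 ± 2.43 FPKM in Sham-vehicle rats (SD, n = 8 each; −0.44, SE 0.128, adjusted p = 0.225).

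Neurotrophic factors and their receptors differed in direction. Of 20 genes tested, Bdnf and Osmr were higher and 4 receptor genes were lower at an unadjusted p under 0.05 (10% and 20%, against 7.08% and 8.02% of all genes). Only Bdnf passed after adjustment in edgeR, against 2 genes in DESeq2. The median of the 20 was −0.11, and 17 were negative, beside 6237 of all 12645 genes. Gfra3, the artemin co-receptor of peptidergic nociceptors, was at 17.8 ± 3.24 FPKM in OVX-TPTD and 22.6 ± 1.8 FPKM in Sham-vehicle rats (SD, n = 8 each), with 6 OVX-TPTD rats below the lowest Sham-vehicle rat (−0.36, SE 0.105, adjusted p = 0.225). Ntrk3, the neurotrophin-3 receptor, had −0.25, and Gfra2, that of neurturin, had −0.17. Leaving out 1 rat gave 3 to 7 lower genes, with 7 without OVX-TPTD replicate 7 or Sham-vehicle replicate 4. In these fits 1500 of 12673 and 1157 of 12675 of all genes were lower. The ligand gene Ntf3 had only 3 to 13 counts per rat and did not pass the filter on low counts.

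The receptor for teriparatide did not differ detectably. Pth1r was at 8.39 ± 1.67 FPKM in OVX-TPTD, 8.03 ± 1.41 FPKM in OVX-vehicle and 8.12 ± 1.45 FPKM in Sham-vehicle rats (SD, n = 8 each), with 4 OVX-TPTD rats on each side of the Sham-vehicle median. Its log2 difference was 0.04 (SE 0.127, edgeR adjusted p = 0.898). Pth2r had at most 5 counts in any rat. Among 47 genes of PTH receptor signalling tested, 0 were higher and 8 were lower at an unadjusted p under 0.05 (17%, against 8.02% of all genes), with a median of −0.05 (−0.03 with the width trend removed, where 3 were higher and 9 lower, beside 7.09% and 6.59% of all genes). None of the 47 passed the adjusted test. The 8 were the adenylyl cyclase genes Adcy1 (−0.23), Adcy5 (−0.21), Adcy6 (−0.14), Adcy7 (−0.22) and Adcy8 (−0.20), the cyclic AMP phosphodiesterase Pde4d (−0.21), the protein kinase C gene Prkce (−0.20) and the CREB coactivator Crtc1 (−0.18). Gnas, which encodes Gs, had −0.06 (SE 0.0529), and the catalytic subunit Prkaca −0.07 (SE 0.048). The count of lower genes was 6 to 14 when 1 rat was left out, with 14 without OVX-TPTD replicate 7 and 13 without Sham-vehicle replicate 3. Among all genes, 1500 of 12673 and 1321 of 12668 were lower without these rats.

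Oestrogen receptor genes were measured at low levels. Esr1 was at 0.702 ± 0.114 FPKM in OVX-TPTD rats and 0.755 ± 0.233 FPKM in Sham-vehicle rats (SD, n = 8 each; −0.12, SE 0.167), and Esr2 had 1 to 10 counts per rat. Among 18 oestrogen receptor and responsive genes, 1 was lower at an unadjusted p under 0.05 (5.56%, against 8.02% of all genes), the retinoic acid receptor gene Rara at −0.20.

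Interferon-stimulated genes showed the highest median of the 49 gene lists, and 2 rats carried much of it. Of 41 tested, 26 were higher and 0 lower at an unadjusted p under 0.05 (63.4% higher, against 7.08% of all genes), with a median of 0.43 that stayed at 0.42 with the width trend removed. None of the 41 passed after adjustment in edgeR, and 1 did in DESeq2. Over the 41 genes, the mean centred log2 level was 0.883 in OVX-TPTD replicate 6 and 0.955 in replicate 7. It ranged from −0.241 to 0.22 in the other 6 OVX-TPTD rats and from −0.401 to 0.25 in Sham-vehicle rats, so that without replicates 6 and 7 the groups overlap broadly. The highest Sham-vehicle value was that of replicate 4. Left out together, an alternative chosen after the data were seen, the 2 rats left 7 of the 41 genes higher and 2 lower. Of all 12704 genes in that fit, 11.9% were higher and 1749 were lower, and the median of the 41 was 0.21. Leaving out 1 rat gave 19 higher genes, without OVX-TPTD replicate 6, to 28, as without Sham-vehicle replicate 3. In these fits 990 of 12676 and 1210 of 12668 of all genes were higher.

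Ifit3, an antiviral gene, was at 2.0, 0.902, 1.83, 0.944, 1.26, 4.68, 4.28 and 0.803 FPKM in OVX-TPTD rats, and at 0.534 to 1.28 FPKM in Sham-vehicle rats (median 0.769). Replicates 6 and 7 stood above the others, and 4 OVX-TPTD rats exceeded the highest Sham-vehicle rat. The log2 difference of Ifit3 was 1.37 (SE 0.319, adjusted p = 0.113). Usp18 (1.34), a protease for ISG15, Oas1a (1.27), which makes the activator of RNase L, and Isg15 (1.22) had adjusted p values of 0.221. Sp100, a nuclear body gene, was spread more evenly, at 1.69, 2.65 and 3.51 FPKM (lowest, median and highest) in OVX-TPTD rats and 1.40, 1.69 and 2.21 FPKM in Sham-vehicle rats, with 6 OVX-TPTD rats above the highest Sham-vehicle rat (0.51, SE 0.128, adjusted p = 0.158). Without OVX-TPTD replicates 6 and 7 the log2 differences were 0.67 for Ifit3, 0.61 for Usp18, 0.64 for Oas1a, 0.50 for Isg15 and 0.37 for Sp100, with edgeR adjusted p values of 0.0846 to 0.214. These genes and those named from the other lists were chosen after their values were seen.

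**Figure D3:**
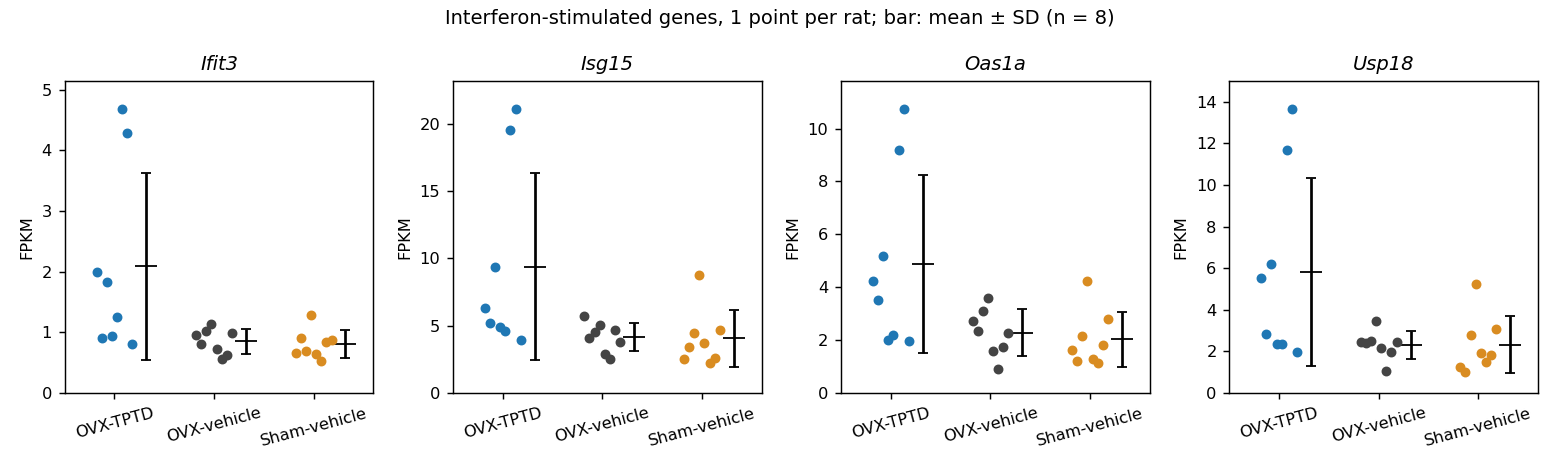
FPKM of 4 interferon-stimulated genes, with 1 point per rat and the mean ± SD of 8 rats per group beside the points. In each panel 2 OVX-TPTD rats, replicates 6 and 7, lie far above the rest (4.68 and 4.28 FPKM for Ifit3), and 1 Sham-vehicle rat, replicate 4, lies above its group.

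Macrophage markers had mostly positive log2 differences, with a wide spread among Sham-vehicle rats, and few passed the unadjusted threshold. Of 18 tested, 17 had positive log2 differences (median 0.16), beside 6408 of all 12645 genes. At an unadjusted p under 0.05, 2 were higher (11.1%, against 7.08% of all genes): Siglec1, which is itself interferon-inducible (0.59, SE 0.262), and the mannose receptor gene Mrc1 (0.34, SE 0.154). Without OVX-TPTD replicates 6 and 7, Siglec1 had 0.17 (edgeR adjusted p = 0.658). The summed level of the markers was 383 to 669 FPKM in OVX-TPTD rats (median 480) and 303 to 831 FPKM in Sham-vehicle rats (median 370). Sham-vehicle replicate 3 held the highest sum. Without this rat, 13 of the 18 markers were higher at an unadjusted p under 0.05 (9.55% of all genes in that fit), with a median of 0.34. Without OVX-TPTD replicate 3 or Sham-vehicle replicate 1, 5 or 7, 0 of the 18 were. Higher among all genes were then 663 of 12670, 825 of 12676, 769 of 12677 and 891 of 12668, in that order. With OVX-TPTD replicate 5, which had the highest marker mean of its group, left out together with Sham-vehicle replicate 3, 9 of the 18 were. In that fit 810 of 12645 genes were higher.

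Among cytokines, chemokines and their receptors, 9 of 43 were higher and 2 lower at an unadjusted p under 0.05 (20.9% and 4.65%, against 7.08% and 8.02% of all genes), with a median of 0.08. Ccl2, which attracts monocytes, was at 25.8 ± 5.01 FPKM in OVX-TPTD and 19.5 ± 3.83 FPKM in Sham-vehicle rats (SD, n = 8 each; 0.40, SE 0.127, adjusted p = 0.254), with 5 OVX-TPTD rats above the highest Sham-vehicle rat. Cxcl10, an interferon-induced chemokine, had 0.87 (SE 0.249, adjusted p = 0.222), and Il18, Ccr1 and Il33 had 0.52, 0.51 and 0.25. Il2rg, the shared receptor chain of interleukin-2 and related cytokines, was at 3.98 ± 0.569 FPKM in OVX-TPTD rats and 3.38 ± 0.416 FPKM in Sham-vehicle rats (SD, n = 8 each; 0.22, SE 0.10, adjusted p = 0.309). The neuronal chemokine gene Cx3cl1 was lower (−0.48). The count of higher genes was 6 without OVX-TPTD replicate 2, 4 or 6 or Sham-vehicle replicate 2, and 12 without Sham-vehicle replicate 3. Among all genes it was 982 of 12669, 699 of 12671, 990 of 12676, 612 of 12678 and 1210 of 12668, in that order. OVX-TPTD replicates 6 and 7, the highest in interferon genes, had mean centred log2 levels of −0.00803 and −0.129 over the 43 genes. The other OVX-TPTD rats ranged from −0.148 to 0.204. The part of the macrophage and interferon levels in the cytokine values was not tested.

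Genes of the JAK-STAT feedback loop included 3 lower and 1 higher of 24 at an unadjusted p under 0.05 (12.5% and 4.17%, against 8.02% and 7.08% of all genes). Cish, an inhibitor that STAT5 induces, was at 7.14, 6.72, 4.95, 4.77, 5.66, 5.51, 6.21 and 6.58 FPKM in OVX-TPTD rats, and at 8.89, 6.90, 7.56, 10.3, 8.01, 8.26, 9.28 and 7.12 FPKM in Sham-vehicle rats. Of the OVX-TPTD rats, 7 lay below every Sham-vehicle rat (−0.49, SE 0.106, adjusted p = 0.0802). OVX-vehicle rats averaged 6.30 ± 1.2 FPKM (SD, n = 8), a difference of −0.40 from Sham-vehicle (SE 0.106, adjusted p = 0.625). Socs2, another STAT5 target, had −0.35 in OVX-TPTD rats (SE 0.125, adjusted p = 0.263) and −0.54 in OVX-vehicle rats (SE 0.127, adjusted p = 0.38), and Stat5b had −0.23 in OVX-TPTD rats (SE 0.0687, adjusted p = 0.237). Socs3, which interleukin-6 type cytokines induce through STAT3, had 0.34 (SE 0.161, adjusted p = 0.32).

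Ion channel genes that differed were mostly lower. Of 49 potassium channel genes 0 were higher and 12 lower at an unadjusted p under 0.05 (24.5%, against 8.02% of all genes), and of 30 voltage-gated sodium and calcium channel genes 0 were higher and 9 lower (30%). Both medians were −0.12, and −0.08 and −0.07 with the width trend removed. The lower counts were then 8 potassium and 5 sodium and calcium channel genes, where 6.59% of all genes were lower. With 4 cell type means as covariates (sensory neuron, satellite glial, myelinating Schwann and muscle markers) 5 sodium and calcium channel genes were lower, where 6.54% of all genes were. Kcnn3, a calcium-activated potassium channel that shapes afterhyperpolarization, was at 4.49 ± 0.610 FPKM in OVX-TPTD rats and 5.84 ± 0.886 FPKM in Sham-vehicle rats (SD, n = 8 each), and all 8 OVX-TPTD rats lay below the Sham-vehicle median (−0.39, SE 0.0943, adjusted p = 0.151). Kcnh2, the ERG channel, had −0.28 (SE 0.0726, adjusted p = 0.184). Scn10a, the nociceptor sodium channel Nav1.8, was at 75.1 ± 12.5 FPKM in OVX-TPTD rats and 86.7 ± 10.9 FPKM in Sham-vehicle rats (SD, n = 8 each; −0.22, SE 0.093, adjusted p = 0.299). Cacna1h, the T-type calcium channel Cav3.2, had −0.27 (SE 0.0919, adjusted p = 0.258). None of the channel genes in these lists passed after adjustment in edgeR, and 1 potassium channel gene did in DESeq2. Leaving out 1 rat gave 8 to 19 lower potassium channel genes and 2 to 14 lower sodium and calcium channel genes, with 8 without OVX-TPTD replicate 5 or Sham-vehicle replicate 1 and 2 without OVX-TPTD replicate 5. The highest counts came without OVX-TPTD replicate 7 (potassium channels) and Sham-vehicle replicate 3 (sodium and calcium channels). The lower genes among all genes were 731 of 12662 without OVX-TPTD replicate 5 and 1500 of 12673 without OVX-TPTD replicate 7. They were 923 of 12676 without Sham-vehicle replicate 1 and 1321 of 12668 without Sham-vehicle replicate 3.

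Ligand-gated channels gave 3 higher and 9 lower of 50 at an unadjusted p under 0.05 (6% and 18%, against 7.08% and 8.02% of all genes). The lower ones included Trpm8, the glutamate receptor genes Gria1 (−0.41, SE 0.106, adjusted p = 0.172) and Grin2d (−0.66), and the mechanosensitive channel Piezo1 (−0.27), and the higher ones included the GABA receptor genes Gabrg1 (0.18) and Gabra5 (0.30). Of 47 receptors for peptides, amines and other transmitters, 2 were higher and 7 lower at the same threshold (4.26% and 14.9%, against the same 7.08% and 8.02%). The higher ones were Ramp1 and Oprd1, the δ opioid receptor (0.36). Ptger3, a prostaglandin E2 receptor (−0.34), and the metabotropic glutamate receptor Grm4 (−0.26) were among the lower ones with Adra2c. The lower counts were 6 ligand-gated channels with the width trend removed and 5 without Sham-vehicle replicate 6, and 11 receptors without Sham-vehicle replicate 4. Of all genes, 6.59%, 682 of 12672 and 1157 of 12675 were lower in these fits, in that order.

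Genes for axon guidance, synaptic release, chromatin and lipid synthesis were also more often lower than higher. At an unadjusted p under 0.05, 14 of 50 axon guidance genes were lower and 1 was higher (28% and 2%), 7 of 40 synaptic vesicle genes were lower and 1 higher (17.5% and 2.50%), and 8 of 32 genes of cholesterol and fatty acid synthesis were lower and 0 higher (25% lower). The background for lower genes is the 8.02% of all genes. With the width trend removed, 11 guidance genes were lower and 1 was higher, and their median of −0.10 became −0.06. In that fit 9 synaptic vesicle and 8 lipid synthesis genes were lower, where 6.59% of all genes were. In guidance, the ligand genes Ntn1 (−0.42) and Slit3 (−0.24) and the netrin receptor gene Unc5b (−0.34) were lower, while the netrin gene Ntn4 was higher (0.40). In lipid synthesis Srebf2, a transcription factor of cholesterol synthesis (−0.22), and fatty acid synthase Fasn (−0.22) were lower. Of 27 chromatin regulators, 9 were lower and 0 higher (33.3% lower). Their median of −0.09 was −0.03 with the width trend removed, and 2 were then lower and 1 higher, where 6.59% and 7.09% of all genes were. The median transcript width of these genes was 7063 bases, against 2160 over all genes. With the cell type covariates 5 were lower, beside 6.54% of all genes. The chromatin count was 4 without OVX-TPTD replicate 5 or Sham-vehicle replicate 6, the synaptic count was 18 without Sham-vehicle replicate 3, and the guidance count was 9 without OVX-TPTD replicate 3. In the same fits 731 of 12662, 682 of 12672, 1321 of 12668 and 804 of 12670 of all genes were lower, in that order.

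Wnt, TGF-β and BMP signalling genes gave 0 higher and 9 lower of 56 at an unadjusted p under 0.05 (16.1% lower, against 8.02% of all genes), among them the receptor Fzd2 (−0.49), the ligand Wnt5a (−0.34) and the BMP inhibitor Nog (−0.31). Matrix genes went both ways, with 5 higher and 6 lower of 42 (11.9% and 14.3%, against 7.08% and 8.02% of all genes). With the width trend removed there were 5 higher and 2 lower, and their median of −0.04 became 0.02. Tnc, a matrix protein of growing and injured tissue, was at 9.1 ± 1.78 FPKM in OVX-TPTD and 12.2 ± 1.49 FPKM in Sham-vehicle rats (SD, n = 8 each), with 6 OVX-TPTD rats below the lowest Sham-vehicle rat (−0.44, SE 0.104, adjusted p = 0.123). Postn (0.42), Col11a1 (0.50) and Lum (0.27) were among the higher genes, whereas the collagen genes Col2a1 (−0.27) and Col4a1 (−0.17) were among the lower ones. The matrix counts were as low as 2 higher genes, without OVX-TPTD replicate 2 or 5 or Sham-vehicle replicate 7, and 3 lower genes, without OVX-TPTD replicate 8 or Sham-vehicle replicate 6 or 8. The former fits had 982 of 12669, 516 of 12662 and 891 of 12668 of all genes higher, in that order. The latter had 897 of 12674, 682 of 12672 and 776 of 12673 of all genes lower.

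Genes of translation, respiration and protein degradation, which have short transcripts, had mostly positive log2 differences. Of 78 cytosolic ribosomal protein genes, 77 had positive log2 differences (median 0.11). Positive differences were found in 6408 of all 12645 genes, and in 71.5% of the narrowest quintile of transcript width, described below. Of the ribosomal genes, 13 were higher and 0 lower at an unadjusted p under 0.05 (16.7% higher, against 7.08% of all genes). Of 71 respiratory chain subunits, 63 were positive (median 0.08) and 4 were higher (5.63%, below the 7.08% of all genes), and of 31 proteasome subunits 8 were higher and 1 lower (25.8% and 3.23%). With the width trend removed, the medians were 0.04 for ribosomal, 0.02 for respiratory and 0.04 for proteasome genes, and 63 ribosomal and 50 respiratory genes were positive. There were then 8 higher ribosomal genes, 0 higher and 2 lower respiratory genes, and 3 higher and 1 lower proteasome genes, where 7.09% of all genes were higher. With the cell type covariates 7 ribosomal, 0 respiratory and 1 proteasome gene were higher, where 5.31% of all genes were. Of the proteasome genes 1 was higher without OVX-TPTD replicate 5 or 8 or Sham-vehicle replicate 6 or 8. Rps24, a small subunit gene, was at 453 ± 46.8 FPKM in OVX-TPTD rats and 399 ± 33.9 FPKM in Sham-vehicle rats (SD, n = 8 each), with a value of 0.17 (SE 0.0661, adjusted p = 0.269). Ribosomal protein genes have many near-identical copies among which reads may be split. The respiratory count was 0 without OVX-TPTD replicate 5 and 12 without Sham-vehicle replicate 1. The ribosomal count of higher genes was 3 without OVX-TPTD replicate 5 or Sham-vehicle replicate 8 and 34 without OVX-TPTD replicate 7. Higher among all genes were 516 of 12662, 1218 of 12673 and 644 of 12674 without OVX-TPTD replicate 5, 7 or 8, in that order. Without Sham-vehicle replicate 1, 6 or 8 they were 825 of 12676, 613 of 12672 and 637 of 12673.

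**Figure D4:**
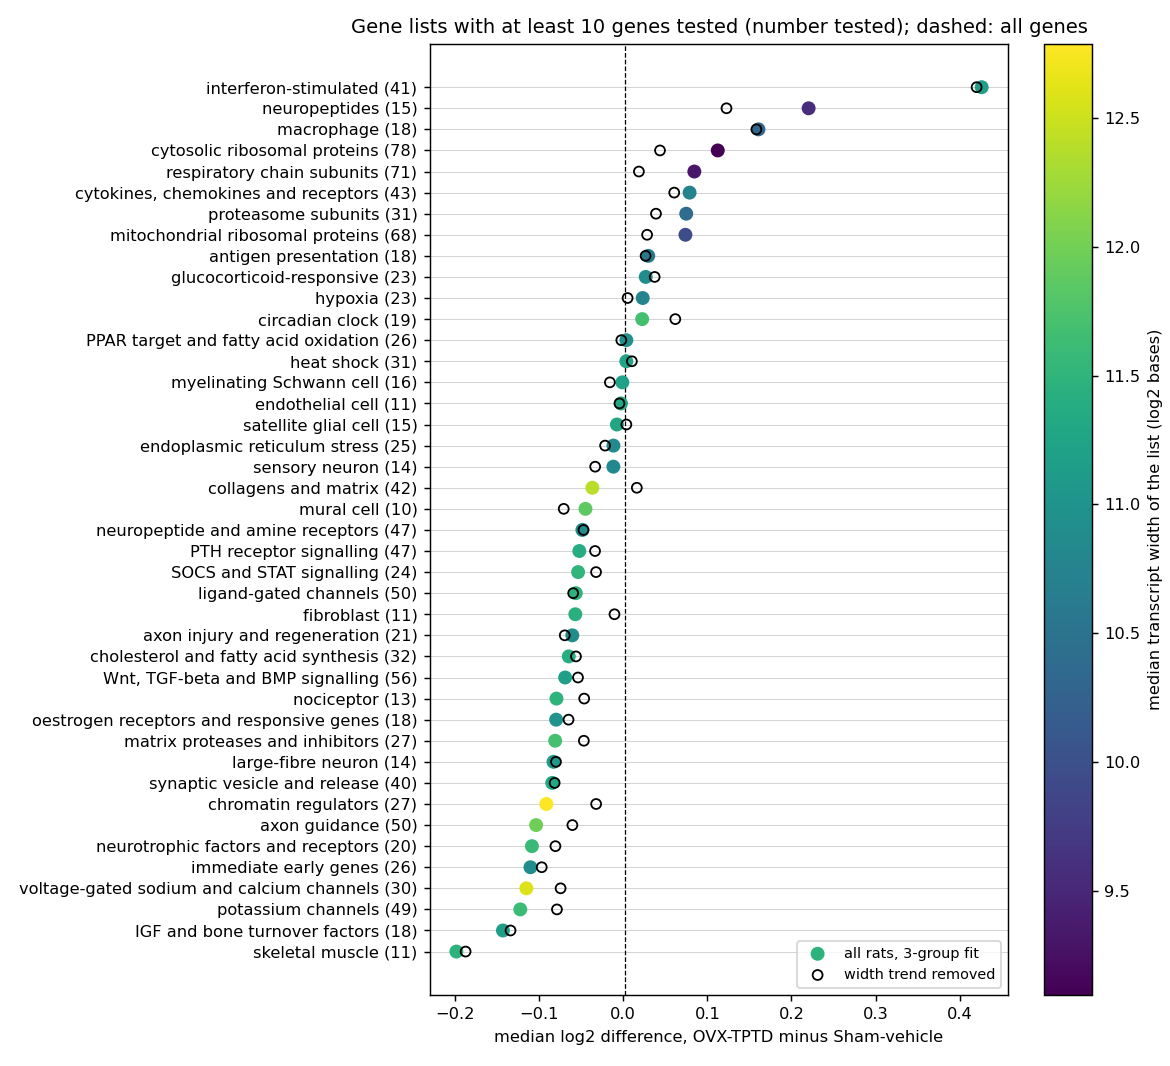
Median log2 difference between OVX-TPTD and Sham-vehicle rats for each gene list with at least 10 genes tested (filled points, coloured by the median transcript width of the list) and the same with the width trend removed (open circles). The interferon list stays at 0.42 without the trend, whereas the ribosomal list goes to 0.04 and chromatin regulators to −0.03.

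Transcript width varied with the differences across all genes. When the 12645 genes were divided into quintiles by the width that the table lists for their transcripts, the median log2 difference between OVX-TPTD and Sham-vehicle rats was 0.06 in the narrowest quintile (111 to 1336 bases), then 0.03, 0.00 and −0.03, and −0.06 in the widest (3621 to 23521 bases). In the narrowest quintile 275 genes were higher and 63 lower at an unadjusted p under 0.05, and in the widest 64 were higher and 440 lower. Across genes, which are not independent replicates, Spearman's rho between width and log2 difference was −0.32 (n = 12645), and −0.02 after the trend was removed. The pattern was present in the more highly expressed genes (0.08 in the narrowest and −0.06 in the widest quintile) and in the less expressed ones (0.04 and −0.06). Of the 4 genes that passed, Bdnf has the widest transcript at 6072 bases and rose against the trend, with 0.62 and an adjusted p of 0.00101 once the trend was removed. Tac1, Tmprss5 and Adra2c had 0.27, −0.28 and −0.34 in the fit without the trend, with adjusted p values of 0.0185, 0.0194 and 0.0179.

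With the rats as replicates, the trend did not pass the test. The difference between the widest and the narrowest quintile was taken in each rat from centred log2 CPM. It was 0.01, −0.11, −0.15, 0.02, −0.27, 0.02, 0.12 and −0.12 in OVX-TPTD rats, and −0.01, 0.12, −0.08, −0.04, 0.11, 0.18, 0.04 and 0.14 in Sham-vehicle rats. The groups overlapped. Replicate 5 was lowest among OVX-TPTD rats and replicate 6 highest among Sham-vehicle rats. The means were −0.06 ± 0.12 in OVX-TPTD, −0.02 ± 0.11 in OVX-vehicle and 0.06 ± 0.09 in Sham-vehicle rats (SD, n = 8 each). OVX-TPTD and Sham-vehicle rats differed by −0.12 (exact two-sided permutation p = 0.0533), OVX-vehicle and Sham-vehicle rats by −0.08 (exact p = 0.152), and OVX-TPTD and OVX-vehicle rats by −0.04 (exact p = 0.531). Library totals were on median 18374920 in OVX-TPTD rats and 17291299 in Sham-vehicle rats, and with all rats thinned to the smallest total the difference was −0.11 (exact p = 0.0578). Leaving out 1 rat gave exact p values from 0.0180, without OVX-TPTD replicate 7, to 0.107, without replicate 5, and with no filter on low counts p was 0.0449. With OVX-vehicle replicate 1 counted as a Sham-vehicle rat the exact p was 0.163.

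**Figure D5:**
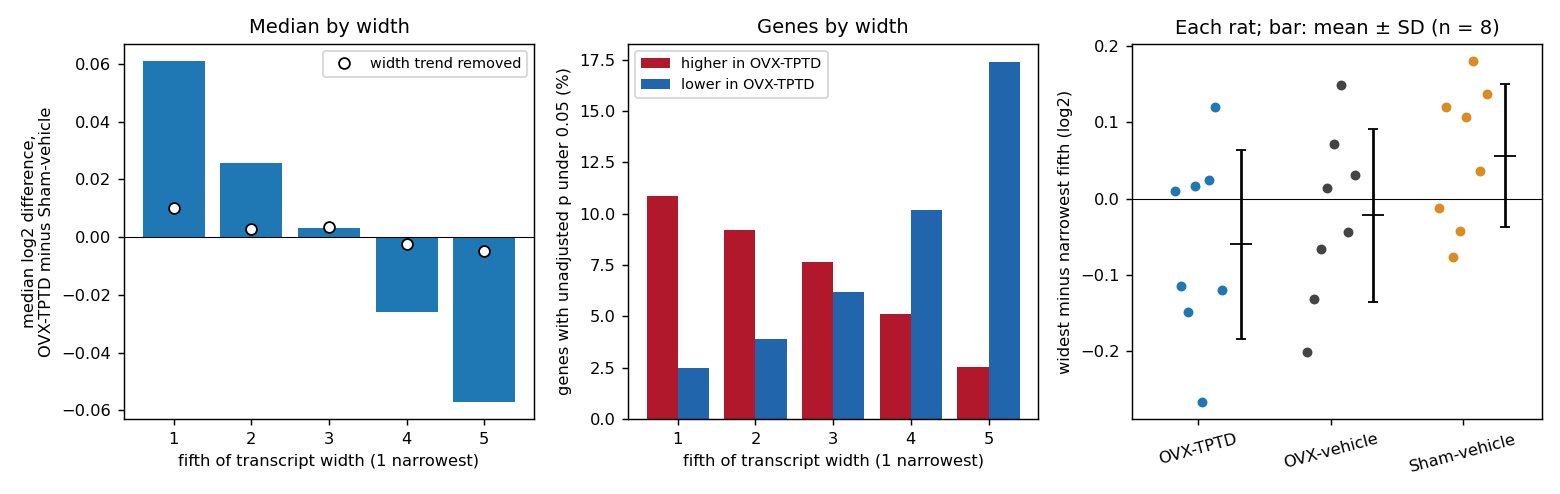
Left, median log2 difference between OVX-TPTD and Sham-vehicle rats by quintile of transcript width (bars, and circles with the trend removed); centre, percentage of genes higher or lower at an unadjusted p under 0.05 in each quintile; right, widest minus narrowest quintile in each rat with the mean ± SD of 8 rats. The medians go from 0.06 to −0.06 across the quintiles, and the rats of the groups overlap.

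The study examined 17 genes by qPCR, which it had chosen on these samples, so that their values here are not independent evidence. It compared OVX-vehicle with Sham-vehicle rats and OVX-TPTD with OVX-vehicle rats, not OVX-TPTD with Sham-vehicle rats. It reported Penk, P2ry14 and Ptger2 as higher and Grm8 and Ccl21 as lower after OVX. With TPTD it reported Ntf3, Il11 and Stoml3 as higher and P2rx1 and Kcnj5 as lower. The values below are not a repeat of those comparisons. Of the 17 genes, 14 passed the filter on low counts, and Tac1, Bdnf and Adra2c passed the adjusted test between OVX-TPTD and Sham-vehicle rats. Penk, the enkephalin precursor (0.23, SE 0.125), P2ry14, a receptor for UDP-glucose (0.21, SE 0.131), Ptger2, a prostaglandin E2 receptor (0.26, SE 0.285), and Grm8, a metabotropic glutamate receptor (−0.18, SE 0.113), had adjusted p values from 0.372 to 0.657. Ccl21, a chemokine of lymphatic vessels and injured neurons, varied widely, at 0.796 to 22 FPKM in OVX-TPTD rats and 3.31 to 19.5 FPKM in Sham-vehicle rats (−0.34, SE 0.433), against 2.09 to 6.11 FPKM in OVX-vehicle rats. Kcnj5, a G protein-gated potassium channel, had −0.35 (SE 0.169, adjusted p = 0.331), and the ATP-gated channel gene P2rx1 0.05 (SE 0.208). Ntf3, Il11 and Stoml3 did not pass the filter, with at most 13, 8 and 8 counts in any rat. Ntf3 was at 0.252 to 0.423 FPKM in OVX-TPTD rats and 0.0927 to 0.463 FPKM in Sham-vehicle rats.

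Markers of other cell types were measured beside these differences, and their part in the single-gene results was not tested. No sensory neuron marker of 14 had an unadjusted p under 0.05 (0 genes, against 15.1% of all genes), with a median of −0.01. The satellite glial markers gave 1 higher and 1 lower of 15 (6.67% each, against 7.08% and 8.02% of all genes). Myelinating Schwann cell markers gave 2 higher and 0 lower of 16 (12.5% higher), and non-myelinating ones 0 higher and 1 lower of 7 (14.3% lower). Of only 3 oligodendrocyte markers tested, 2 were higher (66.7%). Of 13 nociceptor markers, 3 were higher and 3 lower (23.1% each, against 7.08% and 8.02% of all genes), with a median of −0.08. The higher ones were Tac1, Nppb and Calca, and the lower ones included Gfra2 and Scn10a, all of them members of the lists above. The lower count was 0 without OVX-TPTD replicate 5, where 731 of 12662 genes were lower. Of 14 markers of large-fibre neurons, 0 were higher and 3 lower (21.4%), with a median of −0.08. Leaving out 1 rat gave 0 lower (without OVX-TPTD replicate 2 or Sham-vehicle replicate 1 or 6) to 6 (without Sham-vehicle replicate 3 or 8). The fits with 0 had 975 of 12669, 923 of 12676 and 682 of 12672 of all genes lower. Those with 6 had 1321 of 12668 and 776 of 12673. The 6 mast cell markers were all negative (median −0.42), and Cma1 (−1.08, SE 0.412, adjusted p = 0.269) and Kit (−0.18) were lower at an unadjusted p under 0.05 (8.02% of all genes were). The lower count without 1 rat was 1 (without OVX-TPTD replicate 3 or 8 or Sham-vehicle replicate 1, 2, 4 or 8) to 4 (without OVX-TPTD replicate 2). In the fits with 1, between 776 of 12673 (without Sham-vehicle replicate 8) and 1157 of 12675 genes (without Sham-vehicle replicate 4) were lower. In the fit with 4 it was 975 of 12669. The sum of the mast cell markers was 8.58 to 13.3 FPKM in OVX-TPTD rats and 10.6 to 15.2 FPKM in Sham-vehicle rats. Skeletal muscle markers, 11 in number, had 0 with such a p, with sums of 8.31 to 10.1 FPKM in OVX-TPTD rats and 8.38 to 15.2 FPKM in Sham-vehicle rats, and the haemoglobin and other erythroid markers had sums of 57.3 to 270 FPKM in OVX-TPTD rats and 70.3 to 153 FPKM in Sham-vehicle rats. Gapdh, the reference gene of the qPCR, was at 2142 ± 112 FPKM in OVX-TPTD rats and 2066 ± 88.5 FPKM in Sham-vehicle rats (SD, n = 8 each).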

How the data were processed

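Per the study's methods, stranded paired-end reads were aligned to rn6 with TopHat (version 2.0.14 per the submitters' notes). The authors deposited an estimated count per entry and rat, of which 86.4% were whole within 0.001. They also deposited an FPKM value, scaled by the authors to gene length and mapped reads. The deposited table also lists a transcript width per entry. The counts were rounded, filtered with filterByExpr and fitted in edgeR 4.0.16 (R 4.3.3) with TMM factors and all 3 groups, and p values were adjusted over all 12645 genes. Exact permutation tests covered all 12870 divisions of 16 rats. The width trend was removed from each rat by a loess offset (span 0.5). Alternatives were DESeq2 1.42.0, limma 3.58.1 on log2 FPKM with pseudocounts of 0.1 and 1, other filters, other scaling, the replicate block, thinning, a surrogate variable (sva 3.50.0), cell type covariates, the 2 compared groups alone, a reassignment of OVX-vehicle replicate 1 to the Sham-vehicle group, and leaving out rats.

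The text names the genes that passed, those with an adjusted p under 0.1, the 17 qPCR genes, Pth1r, Pth2r, Gapdh, Esr1 and Esr2, and members of 49 gene lists that were picked after their values were seen. Some genes that these rules name are not reported here. The members and lists were chosen with earlier results of these data known. In counts simulated for OVX-TPTD against Sham-vehicle rats over 12645 genes, 52.5%, 91.9% and 100% of genes changed by 0.3, 0.5 and 1 on the log2 scale were recovered, and 0.0321% of unchanged genes were called. The 200 changed genes were drawn only from genes above a minimum mean count. The simulated spread followed the trend with expression level, not each gene's own spread, and no variation was shared between genes. These shares therefore do not give the power of the test in the rats. No pair of rats within a group differed by less than the sampling noise. The fits without 2 rats were chosen after seeing the data.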

Additional observations from a re-analysis of the deposited data

Results flagged for a closer look

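In groups of 8 rats, a single rat stood far from the others in 11 of the 138 groups examined. Chance flags about 1 in 20 groups. In Sham-vehicle rats these were Ifitm1 in replicate 3 (30.5 FPKM, others 15.8 to 19.5), Calca in replicate 4 (309 FPKM, others 214 to 239), Isg15 in replicate 4 (8.79 FPKM, others 2.25 to 4.70), the mast cell protease gene Cma1 in replicate 4 (2.12 FPKM, others 0.246 to 1.08), and, in replicate 8, Ptger2 (4.36 FPKM, others 0.962 to 1.85), Ntf3 (0.463 FPKM, others 0.0927 to 0.266) and Patz1 (5.28 FPKM, others 4.20 to 4.68). In OVX-TPTD rats they were Grm8 in replicate 1 (5.32 FPKM, others 3.32 to 3.99), Cma1 in replicate 2 (0.828 FPKM, others 0.157 to 0.454), Calcb in replicate 3 (220 FPKM, others 150 to 183) and Socs2 in replicate 6 (6.86 FPKM, others 4.81 to 5.24).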

How the results depend on the processing

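Bdnf passed in every setting run, 16 fits without 1 rat and 18 others, with adjusted p values up to 0.0284, whereas Tac1, Tmprss5 and Adra2c lost their calls in 2, 3 and 6 of the 18. In place of 4 genes (2 higher, 2 lower), the count that passed was 9 (6 higher) with library size scaling, 14 (7 and 7) without OVX-vehicle replicate 1, 1 (1 and 0) with this rat counted as Sham-vehicle, 12 (5 and 7) after thinning, 147 (47 and 100) with 1 surrogate variable, 12 (8 and 4) with the cell type covariates, and 40 (19 and 21) in DESeq2. It was 6 (5 and 1) and 7 (5 higher) in limma with pseudocounts of 0.1 and 1. In alternatives chosen after seeing the data it was 2 (0 lower) without OVX-TPTD replicate 5 and Sham-vehicle replicate 3, and 62 (18 and 44) without OVX-TPTD replicates 6 and 7. Leaving out 1 rat gave 1 to 8 genes (1 to 4 higher, 0 to 4 lower), with 1 without OVX-TPTD replicate 6 or Sham-vehicle replicate 4 and 8 without OVX-TPTD replicate 1 or 2. With the replicate block 10 genes passed (5 and 5), and 11 (6 and 5) with the width trend also removed. Over all genes, deviations of same-numbered OVX-TPTD and Sham-vehicle rats correlated by −0.0867 to 0.114. The mean centred log2 level of 19 circadian clock genes, picked after it was seen, was mostly higher in replicates 5 to 8. In Sham-vehicle rats it was −0.251 to −0.0736 in replicates 1 to 4 and 0.0505 to 0.29 in replicates 5 to 8. These ranges were −0.318 to −0.0286 and −0.000471 to 0.182 in OVX-vehicle rats. They were −0.184 to 0.00915 and −0.00873 to 0.148 in OVX-TPTD rats. The cause of this and of the changes in the count that passed was not tested.

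The width difference was −0.0942 with no filter on low counts, where it passed the threshold, and −0.142 to −0.0864 without 1 rat. It was −0.0874 with OVX-vehicle replicate 1 counted as a Sham-vehicle rat, where it did not pass (exact permutation p = 0.163). The thresholds of the study gave 148 entries on log2(FPKM + 1), and 276 to 509 without 1 rat. Directions reversed for 3 genes that had not passed. P2rx1 was −0.0311 with the cell type covariates, and ranged from −0.0594 to 0.156 without 1 rat. Pth1r ranged from −0.0286 to 0.109 without 1 rat, and Ccl21 was 0.033 without OVX-TPTD replicates 6 and 7. Depth limits Il11, Stoml3, Ntf3 and other genes with few counts.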
